A study of Mus musculus with 8 samples.

Results

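The MHC class II genes are described here in lumbar spinal cord microglia of C57BL/6 mice before and after nerve injury. The members were 7 named genes of 27998 in the gene list of the files: H2-Aa, H2-Ab1 and H2-Eb1, which encode chains of the classical class II molecules, Cd74, H2-DMa and H2-DMb1, which encode proteins that guide peptide loading, and Ciita, which encodes the class II transactivator. They were chosen by name and function. The data were unique molecular identifiers (UMIs), each a count of 1 captured RNA molecule, from 8 single-cell RNA-seq libraries of YFP-sorted cells. Control animals carried Cx3cr1-yfp-creER/+, which places YFP and a tamoxifen-dependent Cre at the Cx3cr1 locus, a gene that microglia and other mononuclear phagocytes express. The A20 cKO animals carried Cx3cr1-yfp-creER/+; Tnfaip3 fl/fl, so that Cre can delete Tnfaip3, the gene of the NF-κB inhibitor A20. Each genotype gave 1 library from naive animals and 1 library each from day 1, 2 and 3 after transection of the sciatic nerve. Per the study's methods, the animals were young adults of both sexes, tamoxifen preceded the experiments, and the cords of 3 animals were pooled per group. Control and A20 cKO are used as labelled. No group had a replicate, and no test between groups was made. All intervals given are 95% intervals that cover counting error only.

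Class II molecules present peptides from endosomes to CD4+ T cells. Their α and β chains assemble in the endoplasmic reticulum with the invariant chain, the product of Cd74, which blocks the peptide groove and directs the complex to endosomes. There proteases trim the invariant chain, and the heterodimer H2-DM, made from H2-DMa and H2-DMb1, helps exchange its last fragment for peptide. Ciita encodes the coactivator that factors bound at the X and Y boxes of class II promoters recruit. Resting microglia are known for low surface class II, which interferon-γ can raise.

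After filtering, 14626 of 14883 cell barcodes remained, with 558 to 3585 cells per library and a median of 2780 to 4274 UMIs per cell. The sort was checked against microglial markers. P2ry12, Tmem119, Cx3cr1 and Csf1r had a UMI in at least 90.1% of cells in every library, whereas Fcrls, another microglial gene, was found in 86.1% to 97.6% of control cells and in 26.7% to 60.0% of A20 cKO cells. The libraries formed 2 sets. Control day 3 and the 4 A20 cKO libraries shared 256 barcodes over their 10 pairs, against 27 over the 3 pairs of the earlier control libraries (naive, day 1, day 2). Markers of several other cell types were also higher in the former 5, called linked libraries here: the 6 neutrophil markers summed to 30.3 to 54.8 CPM (UMIs per 1000000 UMIs of the library) against 0 to 0.142, the 6 monocyte markers to 27.9 to 87.02 against 2.21 to 3.70, and the 7 ependymal and choroid plexus markers to 134 to 424 against 0 to 0.213. Not all types rose: the 5 matched B cell markers were at 21.2 to 37.2 CPM in the linked libraries against 38.2 to 51.1 in the others, and the 5 matched T and NK cell markers at 0 to 0.787 against 0.142 to 4.36. The ranges overlapped for border-associated macrophage markers (149 to 226 against 134 to 205) and for dendritic and endothelial cell markers. The part of these differences in the values of the class II genes was not tested. Per 1000000 barcode pairs (1 from each library), sharing was 5.41 to 67.6 within the linked set and 1.48 to 2.29 within the other. The 15 pairs across the sets shared 98 barcodes, or 0.797 to 8.83 on this scale. This range overlapped both, so shared barcodes alone did not separate the sets. Control day 3 had 5.41 to 18.3 with A20 cKO libraries, below the 33.4 to 67.6 among A20 cKO day 1, day 2 and day 3. Only control day 3 allows a comparison of the genotypes among the linked libraries. For the other days, genotype and this split cannot be told apart. Tnfaip3 UMIs were higher in the A20 cKO libraries (42.3 to 67.7 CPM) than in control (6.83 to 25.3 CPM), but a 3′ tag need not lie in the deleted segment, so they did not check the deletion.

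Of the members, 5 lie together on chromosome 17 in GRCm38. H2-DMa (ENSMUSG00000037649, 34119541 to 34139101, plus strand) and H2-DMb1 (ENSMUSG00000079547, 34153072 to 34160230, plus strand) come first by position. H2-Ab1 (ENSMUSG00000073421, 34257689 to 34269419, plus strand), H2-Aa (ENSMUSG00000036594, 34282744 to 34287823, minus strand) and H2-Eb1 (ENSMUSG00000060586, 34305867 to 34316674, plus strand) follow. Ciita (ENSMUSG00000022504) is at chromosome 16, 10480059 to 10528418, plus strand, and Cd74 (ENSMUSG00000024610) lies outside both regions. H2-DMa overlaps Brd2 on the opposite strand, H2-Eb1 overlaps an antisense transcript and Ciita overlaps Dexi. The use of strand in counting was not given in the sources used here, so reads of overlapping pairs may not be fully separated. H2-DMb1 also has a close paralog, H2-DMb2, between which reads could be split.

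The promoter table of RefSeq (GRCm38.p6) held 4 of the 7 members: H2-Aa, H2-Eb1, H2-DMa and H2-DMb1. The 250 bases before each start were searched on both strands for the X box, spelled CTNGNAAC, followed within 40 bases by the Y box, spelled TGATTGG, which do not overlap each other. These letters were fixed after the member promoters had been read. The pair was found in 27 of 32851 promoters (0.0822%), while the X letters alone were in 10.9% and the Y letters alone in 7.23%. H2-Aa, H2-Eb1 and H2-DMb1 held the pair, and the 2 listed starts of H2-DMa held neither box. The stretches of both classical chain genes are shown because they carry the boxes that class II promoters share, with the X and Y boxes in capitals. That of H2-Aa is chr17:34287855-34287919 on the minus strand and that of H2-Eb1 is chr17:34305761-34305824 on the plus strand, both written 5′ to 3′.
H2-Aa: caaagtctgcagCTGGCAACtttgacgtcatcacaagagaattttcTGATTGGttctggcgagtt
H2-Eb1: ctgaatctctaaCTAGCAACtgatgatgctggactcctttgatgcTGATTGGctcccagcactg
The boxes were 26 bases apart in H2-Aa, 25 in H2-Eb1 and 26 in H2-DMb1. The X box began 84, 94 and 97 bases before the start, respectively. These matches are letters in a window and do not show binding.

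The members differed in abundance, with overlapping ranges. H2-DMa and H2-DMb1 were at 157 to 639 CPM, Cd74 at 45.9 to 266 CPM and H2-Ab1 at 17.3 to 45.7 CPM. H2-Aa and H2-Eb1 stayed under 10 CPM, and Ciita had 7 UMIs in all. Since a molecule gives 1 tag whatever its length, these levels are not scaled by length.

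**Figure D1:**
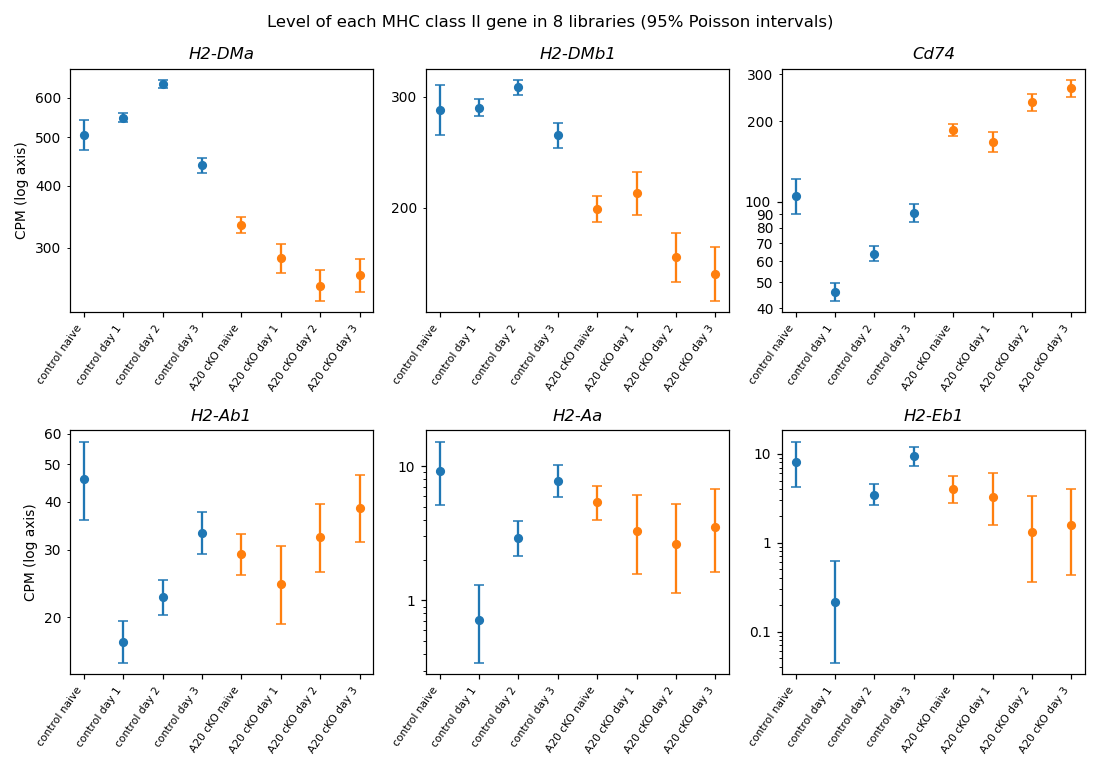
Level of 6 class II genes in CPM (log axis, each panel with its own range) in each of the 8 libraries, control in blue and A20 cKO in orange, with 95% Poisson intervals. H2-DMa and H2-DMb1 are lower and Cd74 is higher in every A20 cKO library than in every control library, while the classical chains are lowest in control day 1.

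H2-DMa, one subunit of the peptide exchange factor, was the most abundant member in all libraries but A20 cKO day 3, where Cd74 was at 266 CPM. From naive through day 3, the control libraries had 506 (472 to 542), 548 (535 to 560), 639 (627 to 652) and 439.7 (425 to 455) CPM. The A20 cKO libraries, again by time, had 333 (321 to 346), 286 (267 to 306), 252 (235 to 271) and 264 (245 to 285) CPM. The genotypes did not overlap, and the lowest control library was the linked day 3. Neighbours in this order differed beyond counting error, except A20 cKO day 1, day 3 and day 2.

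H2-DMb1, its partner subunit, had the same order of genotypes at lower levels. The control series was 286 (261 to 314), 288 (279 to 297), 311 (302 to 319) and 261 (249 to 273) CPM, again from naive through day 3. The A20 cKO series was 199 (190 to 208), 211 (195 to 228), 167 (153 to 182) and 157 (142 to 173) CPM. The highest A20 cKO library was below the lowest control library, with a log2 ratio of 0.31 (0.18 to 0.44) between these 2. Both DM genes were found across the cells rather than in few of them. After each cell was thinned to 2000 UMIs, which left out 20 to 310 shallower cells per library, H2-DMa had a UMI in 58.7% to 72.1% of control cells and 36.8% to 46.8% of A20 cKO cells, and H2-DMb1 in 38.3% to 46.0% and 26.8% to 33.4%. Unthinned, these shares were 58.6% to 90.7% for H2-DMa and 43.0% to 70.9% for H2-DMb1. The 1% of cells with most UMIs of the gene held 3.85% to 5.95% of H2-DMa UMIs and 4.66% to 8.10% of H2-DMb1 UMIs.

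Cd74, the invariant chain gene, had the opposite order. From naive through day 3, the control libraries had 105 (89.7 to 122), 45.9 (42.4 to 49.6), 64.0 (60.1 to 68.0) and 90.6 (83.8 to 97.8) CPM. The A20 cKO libraries, again by time, had 186 (177 to 195), 168 (153 to 183), 236 (219 to 254) and 266 (246 to 287) CPM. All A20 cKO libraries exceeded all control libraries, and only control naive and control day 3 did not differ from each other beyond counting error among neighbours in the order.

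**Figure D2:**
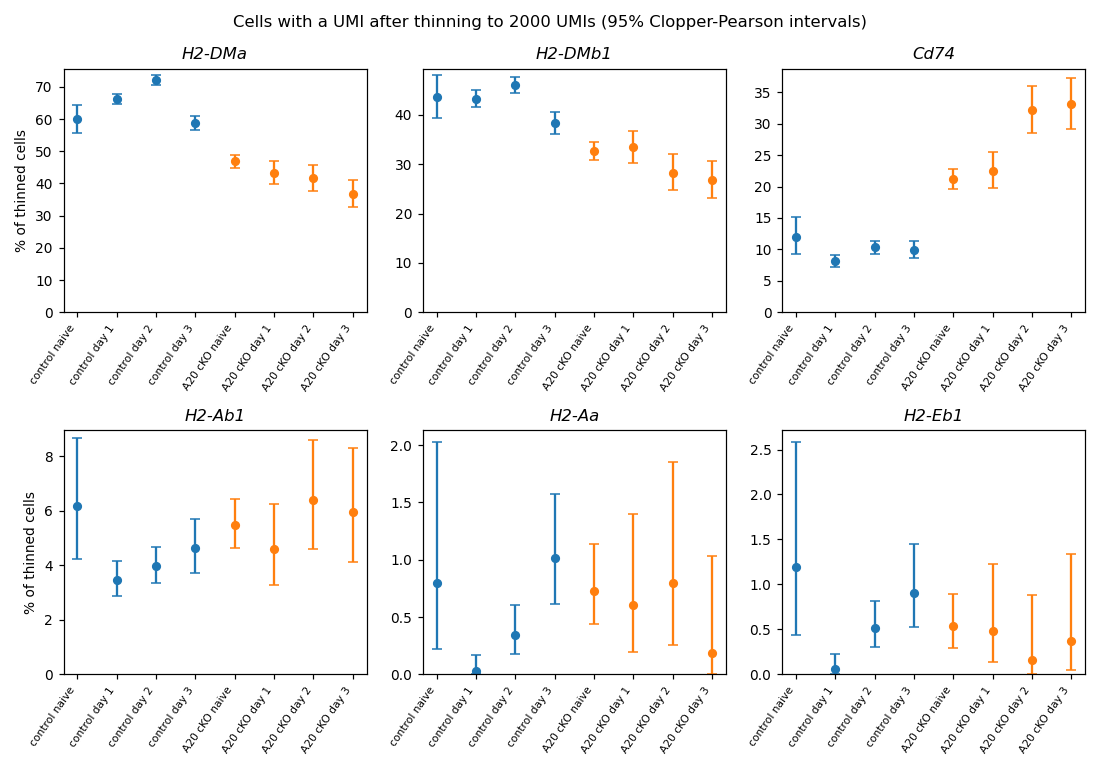
Share of cells with at least 1 UMI of each gene (% of cells, each panel with its own range from 0) after thinning each cell to 2000 UMIs, with 95% Clopper-Pearson intervals, control in blue and A20 cKO in orange. Cd74 cells made up 8.19% to 11.95% of control and 21.2% to 33.1% of A20 cKO cells, and no panel of a classical chain separates the genotypes.

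More cells held Cd74 in A20 cKO. After thinning, 11.95% (9.25% to 15.1%) of control naive cells had a UMI, and 8.19% (7.26% to 9.19%), 10.3% (9.35% to 11.4%) and 9.90% (8.59% to 11.3%) on days 1, 2 and 3. The A20 cKO shares, naive first, were 21.2% (19.7% to 22.8%), 22.5% (19.7% to 25.5%), 32.1% (28.5% to 35.9%) and 33.1% (29.1% to 37.2%). No interval of one genotype met one of the other. Unthinned shares were 14.8% to 19.5% in control and 28.4% to 51.4% in A20 cKO. For background, 29 kept cells held at least 3 markers of another type and more UMIs of these than of microglial markers. None of these 29 held Cd74 or a classical chain, which allows a share of up to 10.3%, while 3 held H2-DMa (10.3%) and 1 held H2-DMb1 (3.45%). Their median was 1355 UMIs, against 3139 over the linked libraries, which included all 29, and they were too few and shallow to set a floor for shares of a few percent.

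**Figure D3:**
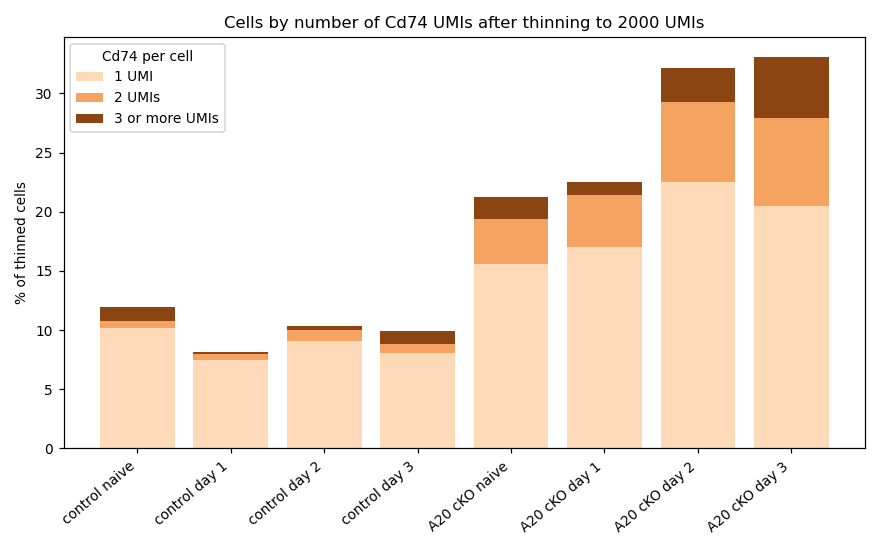
Share of cells (%) with 1, 2 or at least 3 Cd74 UMIs after thinning to 2000 UMIs, stacked per library. Cells with 1 UMI make up most of each bar, and cells with at least 3 reached 5.20% in A20 cKO day 3 against at most 1.20% in the control libraries.

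After thinning, most Cd74-positive cells held a single UMI. Exactly 1 UMI was found in 7.50% to 10.2% of control cells and in 15.5% to 22.5% of A20 cKO cells. Cells with at least 3 UMIs made up 1.20%, 0.217%, 0.374% and 1.06% of the control series in order of time, and 1.84%, 1.08%, 2.88% and 5.20% of the A20 cKO series. The unthinned top 1% of cells held 36.5%, 18.9%, 24.6% and 46.1% of Cd74 UMIs in the control series, and 23.1%, 12.4%, 9.34% and 10.2% in the A20 cKO series, so that the genotypes overlapped.

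Among the classical chains, H2-Ab1, the β chain of I-A, was the most abundant. Its control series, naive first, was 45.7 (35.9 to 57.3), 17.3 (15.2 to 19.6), 22.6 (20.3 to 25.04) and 33.2 (29.2 to 37.7) CPM. The A20 cKO libraries, again by time, had 29.2 (25.7 to 32.9), 24.4 (19.2 to 30.7), 32.3 (26.2 to 39.4) and 38.6 (31.3 to 47.0) CPM. The genotypes overlapped, and only control day 1 stood below its neighbour in the order beyond counting error.

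H2-Aa, the α chain that pairs with it, was rarer. Control libraries had 15, 10, 46 and 57 UMIs in naive, day 1, day 2 and day 3, or 9.26 CPM (5.18 to 15.3), 0.711 (0.341 to 1.31), 2.91 (2.13 to 3.88) and 7.82 (5.92 to 10.1). The A20 cKO libraries had 48, 10, 8 and 9 UMIs, or 5.38 CPM (3.97 to 7.13), 3.30 (1.58 to 6.07), 2.64 (1.14 to 5.20) and 3.54 (1.62 to 6.72). Again only control day 1 stood apart from its neighbour in the order. H2-Eb1, the β chain of I-E, had 13, 3, 55 and 68 UMIs in control, or 8.02 CPM (4.27 to 13.7), 0.213 (0.0440 to 0.624), 3.48 (2.62 to 4.53) and 9.33 (7.25 to 11.8). In A20 cKO it had 36, 10, 4 and 4 UMIs, or 4.04 CPM (2.83 to 5.59), 3.30 (1.58 to 6.07), 1.32 (0.359 to 3.38) and 1.57 (0.429 to 4.03). Both were highest in control naive and control day 3, whose intervals overlapped.

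The chains differed in how they were spread over cells. After thinning, H2-Ab1 had a UMI in 3.47% to 6.39% of cells, and H2-Aa and H2-Eb1 in at most 1.01% and 1.20%. Unthinned, the ranges were 6.80% to 12.9%, 0.271% to 1.41% and 0.0903% to 1.76%. Of the cells with H2-Ab1, 87.0% to 98.2% per library held neither H2-Aa nor H2-Eb1. A share of 61.1% to 80.1% in control and 36.1% to 54.5% in A20 cKO lacked Cd74 as well. Hence most cells with H2-Ab1 showed no H2-Aa, its partner chain, and no H2-Eb1, although a chain with few molecules can be missed at this depth. Among thinned cells, those with Cd74 held H2-Ab1 more often than those without it in 8 of 8 libraries (4.55% to 15.1% against 3.38% to 5.65%). In contrast, they held H2-DMa more often in only 2 of 8 (36.0% to 68.9% against 37.2% to 72.5%).

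In all, 69 of 14626 cells (0.472%) held UMIs of at least 2 of the 3 classical chains, here called 2-chain cells. They numbered 7 of 568 in control naive, 4 of 3323 on day 1, 11 of 3585 on day 2 and 21 of 2117 on day 3. In A20 cKO they numbered 12 of 2922, 7 of 886, 3 of 667 and 4 of 558. Their shares were highest in control naive with 1.23% (0.497% to 2.52%) and control day 3 with 0.992% (0.615% to 1.51%), and lowest in control day 1 with 0.120% (0.0328% to 0.308%). These cells carried 70.0% of H2-Aa UMIs and 57.0% of H2-Eb1 UMIs, which follows in part from their definition. They also held 12.2% of Cd74 UMIs, a gene not used to choose them, with a range over libraries from 2.64% in control day 1 to 43.6% in control day 3. Of H2-DMa and H2-DMb1 they held 0.657% and 0.710% of UMIs.

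**Figure D4:**
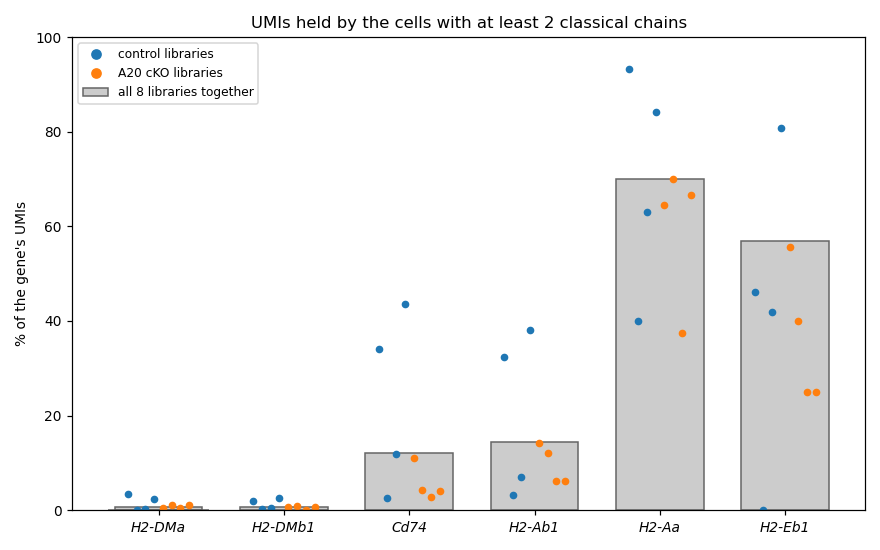
Share of each gene's UMIs (%) held by the 69 cells with at least 2 classical chains, with bars for all libraries together and points for single libraries (control blue, A20 cKO orange). H2-Aa and H2-Eb1 sit at 70.0% and 57.0%, Cd74 and H2-Ab1 at 12.2% and 14.3% over all libraries, with Cd74 above H2-Ab1 in 3 of the 4 control libraries, and the bars of both DM genes below 1%.

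The Cd74 level inside the 2-chain cells was above that of the other cells in 8 of 8 libraries, with a median log2 ratio of 4.68 (range 2.16 to 5.91). For H2-DMa and H2-DMb1 these medians were 0.38 and 0.24, near the 0.22 of all genes compared. The median number of UMIs of the 7 microglial markers per 2-chain cell was above that of the other cells in 4 of 4 control libraries (77, 106.5, 114 and 55 against 66, 93, 77 and 54) and below it in 4 of 4 A20 cKO libraries (44, 38, 33 and 51.5 against 51, 43, 48.5 and 52). These counts were not scaled to depth. In control the 2-chain cells were also deeper, with medians of 3303, 4095.5, 4673 and 3855 UMIs against 2777, 4080, 3909 and 3184. In A20 cKO these medians were 3347.5, 2840, 2313 and 4943 against 2824, 3115, 4129.5 and 4272. None of the 2-chain cells was led by markers of another type. At least 2 markers of another type were found in 18 of the 69 (26.1%), against 2001 of all 14626 cells (13.7%), and in control day 3 in 9 of 21 (42.9%) against 17.1% of its cells. The part of these cells in the class II values was not tested beyond the ratios without them given below. Of the 69, 4 held at least 2 macrophage, monocyte, dendritic or B cell markers, and 2 lay on barcodes shared between libraries.

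There were 11 cells with at least 10 chain UMIs: 1 in control naive, 1 in control day 2, 6 in control day 3 and 3 in A20 cKO naive. They held 258 of the 1842 chain UMIs of all libraries (14.0%), with 39.9% of H2-Aa UMIs, 35.2% of H2-Eb1 UMIs and 7.54% of H2-Ab1 UMIs, beside 6.70% of Cd74 UMIs. The richest had 54 chain UMIs and 110 of Cd74 in control day 2, with 46 microglial marker UMIs against a library median of 77. In control day 3 the richest had 36 chain UMIs, 47 of Cd74 and 101 microglial marker UMIs. Another control day 3 cell, with 29 chain UMIs, had 12 microglial marker UMIs and UMIs of 5 of the 9 border-associated macrophage markers, the only one of the 11 with more than 1 of these. The other 8 had 25 to 164 microglial marker UMIs.

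Cd74 was therefore also computed without the 2-chain cells, a choice made after seeing the data. The control series then read 70.3 (57.8 to 84.5), 44.7 (41.3 to 48.4), 56.6 (53.0 to 60.4) and 51.7 (46.6 to 57.2) CPM. The A20 cKO series read 166 (158 to 175), 162 (148 to 177), 230.4 (214 to 248) and 257 (238 to 278) CPM. The genotypes were further apart than with these cells, since the values of control naive and day 3 changed most.

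Ciita, the transactivator, was close to the limit of detection. It had 0 UMIs in control naive, day 1 and day 2, which allows up to 1.85, 0.213 and 0.190 CPM. It had 4 UMIs in control day 3, 1 each in A20 cKO naive, day 1 and day 2, and 0 in A20 cKO day 3, which allows 1.18 CPM. No cell held more than 1, and 1 of the 7 UMIs was in a 2-chain cell. No ratio is given at these counts.

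The time course in control asked how the genes moved after nerve injury. Ratios are log2 ratios of CPM, a gene counts as tested with 100 or more UMIs over the pair of libraries, and past 2-fold counts as called. H2-Aa, H2-Eb1 and Ciita were not tested except as stated, so 4 members were. On day 1 against naive, Cd74 was at −1.20 (−1.44 to −0.94) and H2-Ab1 at −1.41 (−1.78 to −1.01), both past 2-fold lower, as were 7.25% of 8866 genes, while 3.82% were past 2-fold higher. The median gene moved by −0.13, and relative to it Cd74 was at −1.07 and H2-Ab1 at −1.28. H2-DMa was at 0.11 (0.01 to 0.22) and H2-DMb1 at 0.01 (−0.13 to 0.15). The 3 chains summed were at 62.9 CPM (51.3 to 76.4) in naive and 18.2 (16.0 to 20.6) on day 1, and H2-Aa was at −3.68 (−5.02 to −2.45) on 10 and 15 UMIs. Only H2-Ab1 and Cd74 of the tested members were thus called, and neither DM gene was.

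The control naive library was small, and its rich cells weighed on this ratio. Without the 2-chain cells, Cd74 on day 1 was at −0.66 and H2-Ab1 at −0.92, both within 2-fold. On day 2, Cd74 was at −0.72 (−0.95 to −0.47), H2-Ab1 at −1.02 (−1.38 to −0.64) and H2-DMa at 0.34 (0.24 to 0.44). Here 6.28% of 9279 genes were past 2-fold lower and 5.92% higher, and H2-Ab1 was at −0.91 relative to the median gene, which had moved by −0.12. H2-Ab1 was within 2-fold without the 2-chain cells (−0.59) and without the 1% of cells richest in class II UMIs (−0.80). On day 3, across the split of libraries, Cd74 was at −0.22 (−0.46 to 0.04), H2-Ab1 at −0.47 (−0.84 to −0.06), H2-DMa at −0.20 (−0.31 to −0.09) and H2-DMb1 at −0.14 (−0.28 to 0.01). No tested member was past 2-fold there, against 2.32% of 8302 genes lower and 8.76% higher. The summed chains were at −1.79 (−2.13 to −1.44), −1.13 (−1.43 to −0.80) and −0.33 (−0.64 to 0.01) on the 3 days, the last interval including 0. Without that richest 1%, day 2 was at −0.81.

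**Figure D5:**
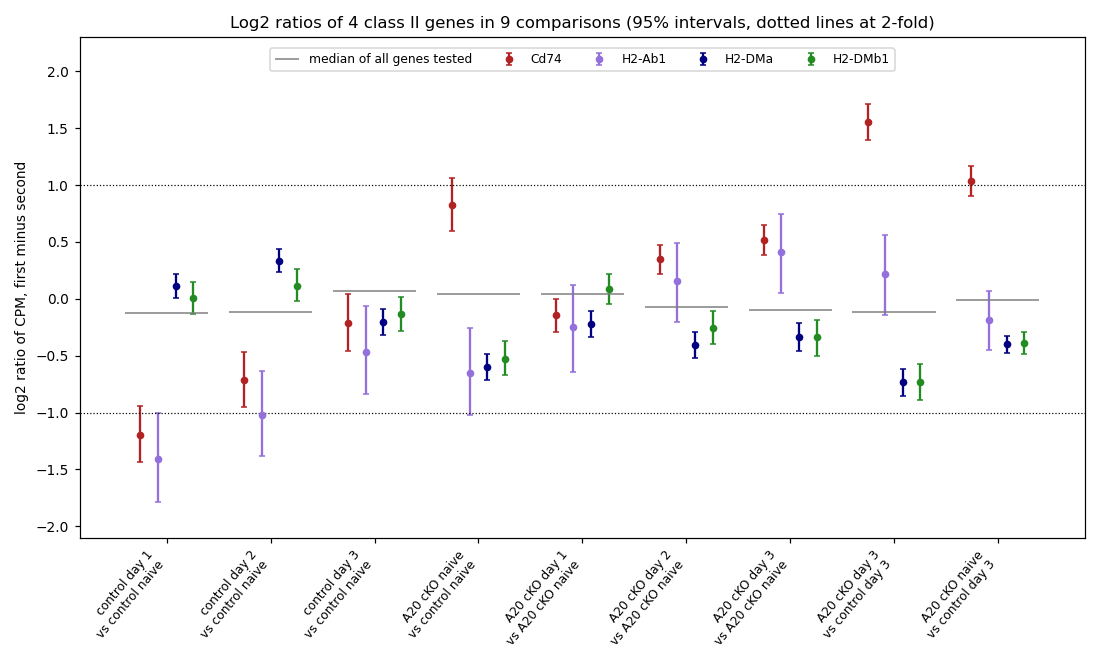
Log2 ratio of CPM for Cd74, H2-Ab1, H2-DMa and H2-DMb1 in 9 comparisons between libraries, with 95% intervals from counting error, the median of all tested genes as a grey bar and 2-fold as dotted lines. Cd74 reaches 1.55 in A20 cKO day 3 against control day 3, where both DM genes are at −0.73.

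The comparison of the genotypes asked how class II genes differed with the floxed Tnfaip3 alleles. On day 3, among the linked libraries, Cd74 was 2.94-fold higher in A20 cKO (log2 ratio 1.55, 1.40 to 1.71, and 1.67 relative to the median gene, which moved by −0.12). It was past 2-fold with 1.86% of 8488 genes, and 0.848% of genes had a higher ratio. H2-DMa was at −0.73 (−0.86 to −0.61) and H2-DMb1 at −0.73 (−0.89 to −0.57), or −0.62 and −0.61 relative to the median gene, within 2-fold, as against 2.40% of genes past 2-fold lower. H2-Ab1 was at 0.22 (−0.14 to 0.56) and the summed chains at −0.20 (−0.53 to 0.10), so neither differed beyond counting error. H2-Eb1, untested, was at −2.41 (−4.48 to −1.15) on 4 and 68 UMIs. The 2-chain cells of control day 3, chosen in part by this gene, held 80.9% of the 68. In the other cells H2-Eb1 was at 1.81 CPM in control day 3 and 1.19 CPM in A20 cKO day 3. Without the 2-chain cells Cd74 was at 2.32 and H2-Ab1 at 0.81.

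In naive animals, across the split, Cd74 was at 0.82 (0.60 to 1.06) in A20 cKO against control, H2-Ab1 at −0.65 (−1.03 to −0.25), H2-DMa at −0.60 (−0.71 to −0.49) and H2-DMb1 at −0.53 (−0.67 to −0.38). None of the 4 was past 2-fold, against 7.43% of 8641 genes higher and 2.22% lower. Without the 2-chain cells Cd74 was at 1.23, past 2-fold. The study also set G2/M-phase cells of A20 cKO naive beside those of control day 3 and reported similar profiles. Here all kept cells of these libraries, both linked, were used. There 6 members were tested, and Cd74 was at 1.04 (0.91 to 1.17) and H2-Eb1 at −1.20 (−1.83 to −0.61), past 2-fold with 0.964% of 9541 genes higher and 1.49% lower. Averaging CPM over single cells put Cd74 at 0.94. H2-Eb1 was at −0.70 without cells holding 2 markers of another type and at −0.20 without the richest 1%, both within 2-fold. H2-DMa and H2-DMb1 were at −0.40 (−0.47 to −0.33) and −0.39 (−0.48 to −0.30). The naive A20 cKO library thus had more Cd74 and less H2-DM than both controls it was set against.

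The time course in A20 cKO was read against A20 cKO naive. Cd74 was at −0.15 (−0.29 to −0.00306), 0.35 (0.22 to 0.47) and 0.52 (0.39 to 0.65) on the 3 days. H2-DMa was at −0.22, −0.40 and −0.33 and H2-DMb1 at 0.08, −0.25 and −0.34. H2-Ab1 was at −0.25 (−0.65 to 0.12), 0.15 (−0.20 to 0.49) and 0.41 (0.05 to 0.74). No tested member was past 2-fold on any day, beside 1.56%, 2.86% and 1.92% of genes higher and 1.39%, 2.65% and 2.00% lower on days 1, 2 and 3. These 3 comparisons share A20 cKO naive, and the control ones share control naive.

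Since the study was about proliferation, the genes were also compared between cells with at least 3 of 18 core G2/M genes and the rest of their library. These cells numbered 1081 in control day 2, 234 in control day 3, and 92, 33, 106 and 49 in the A20 cKO libraries, but 1 and 8 in control naive and day 1, which are not used. They were deeper, with a median of 5527 against 3565.5 UMIs in control day 2. H2-DMa was lower in them, by log2 ratios of −0.13 (−0.19 to −0.07) and −0.25 (−0.40 to −0.10) in control day 2 and day 3, and −0.28 (−0.55 to −0.02), −0.52 (−0.80 to −0.26) and −0.49 (−0.89 to −0.12) in A20 cKO naive, day 2 and day 3. In A20 cKO day 1 the interval included 0. The shift of the median gene in this comparison is not given, so its ratios are not set against those of other genes. Cd74 was at −0.34 (−0.53 to −0.15) in control day 2 and −0.68 (−1.11 to −0.30) in A20 cKO day 3, and at −0.01 (−0.33 to 0.29) in control day 3. In A20 cKO naive, day 1 and day 2 it was at 0.29 (−0.02 to 0.57), 0.06 (−0.55 to 0.57) and −0.12 (−0.39 to 0.13), so these intervals included 0. In control day 2, 1 cell in the rest of the library held 110 of the 656 Cd74 UMIs found there. The ratio without this cell was not computed. The summed chains were at −0.42 (−0.71 to −0.14) in control day 2 but 0.65 (0.28 to 1.00) in control day 3. In A20 cKO naive, day 1, day 2 and day 3 they were at −0.22 (−1.12 to 0.48), 0.26 (−1.33 to 1.33), −0.36 (−1.15 to 0.31) and −0.50 (−1.66 to 0.38). All of these A20 cKO intervals included 0. The same control day 2 cell held 54 of the 303 chain UMIs in the rest of its library. In control day 3 the cells with core G2/M genes held 85 chain UMIs in all. Single cells of that library held up to 36, and the side on which they fell is not given. The chain ratios without such cells were not computed, so the opposite signs may rest on few cells.

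Of 34 other genes of the class II pathway in 7 lists, 29 to 31 were tested. On day 3, 2 of 31 (6.45%) were past 2-fold higher in A20 cKO and none lower, beside 1.86% of all genes higher and 2.40% lower. Both were costimulatory genes (2 of 4 in the list). Cd40, the receptor for CD40 ligand, was at 7.55 CPM (5.69 to 9.82) in control day 3 and 24.0 (18.4 to 30.8) in A20 cKO day 3, a log2 ratio of 1.67 (1.12 to 2.22). Cd80, a ligand of CD28, was at 10.02 CPM (7.85 to 12.6) and 22.8 (17.3 to 29.5), a log2 ratio of 1.19 (0.66 to 1.71). The median of the 31 was 0.17, beside −0.12 over all genes tested. None of 7 promoter factors, 5 endosomal processing genes, 3 surface turnover genes, 8 tested interferon-γ path genes, 3 tested genes of the class II region and 1 tested CD74 partner was past 2-fold. Mif, a ligand of CD74, was just within it at 0.98 (0.82 to 1.13), and Ctss, the protease that trims the invariant chain, was at 0.35 (0.33 to 0.37).

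In naive animals 3 of 31 (9.68%) were past 2-fold higher in A20 cKO, near the 7.43% of all genes, and none was lower. March1, a ubiquitin ligase that removes class II from the surface, was at 182 CPM (162 to 204) in control and 405 (392 to 419) in A20 cKO. Cd40 was at 1.23 CPM (0.149 to 4.46), on 2 UMIs, and 17.04 (14.4 to 19.98), a log2 ratio of 3.47 (1.91 to 6.85). Both span the split of libraries, and in the linked control day 3 March1 was at 386 CPM (372 to 401). H2-Oa, a subunit of the DM inhibitor DO, was at 42.6 CPM (33.1 to 53.9) and 66.9 (61.7 to 72.5), and H2-Ob, the other, at 40.1 (31.0 to 51.1) and 25.0 (21.8 to 28.5). In the linked control day 3 H2-Ob was at 20.9 CPM (17.7 to 24.5), and the log2 ratios against it were 0.26 (−0.04 to 0.57) in A20 cKO naive and 0.28 (−0.17 to 0.70) in A20 cKO day 3, both intervals including 0. H2-Oa was at 41.2 CPM (36.6 to 46.1) in control day 3. Its log2 ratios against that library were 0.70 (0.50 to 0.91) in A20 cKO naive and 0.85 (0.58 to 1.12) in A20 cKO day 3, both intervals excluding 0.

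The genes closest to Cd74 in pattern were found by the root mean square distance between centred log2(CPM + 1) over the 8 libraries, among the 6169 genes that averaged 20 CPM or more. The nearest included B2m at 0.21, Gsap at 0.25, H2-M3 at 0.26 and Slamf8 at 0.27, against a median distance of 0.86. B2m, the light chain of class I molecules, ran from 3221 CPM in control day 1 to 12470.4 CPM in A20 cKO day 3. The classical chains were farther from Cd74 than these genes, H2-Ab1 at 0.70, H2-Aa at 0.97 and H2-Eb1 at 1.26, and H2-DMa was at 1.31. Closest to the summed chains were Vps51 at 0.15, Pacs2 at 0.21, Grcc10 at 0.22, Sfi1 at 0.23 and Pkib at 0.23, with a median of 0.56. The 8 points share the split of the libraries, so these distances describe the libraries only.

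The 10 genes with the highest median ratio in 2-chain cells over the rest, members left out, were Il12b, C3, Hspa1a, Itgax, Ly6i, Snx11, Hps1, Rhoc, Rfk and AW112010. The 0.5 UMIs added to each sum set much of this order in so few cells: Hspa1a had 0 UMIs in the 2-chain cells, and the 7 of Il12b were all in 1 library. Those with UMIs there in all 8 libraries were AW112010, with 53, and Rhoc, with 21. Itgax, which encodes the integrin CD11c, had 13 UMIs in 6 libraries, and Ly6i had 22 in 4.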

How the data were processed

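The authors deposited, per library, a table of UMI counts per gene and cell barcode, made with Cell Ranger 2.1.1 on mm10 per the labels. The kit was a 10x Chromium 3′ kit. Values are raw counts. Groups come from the labels, with 1 library each. Here, cells with at least 1000 UMIs, at least 500 genes and at most 10% mitochondrial UMIs were kept. No doublet caller was run. UMIs were summed per library (1620481 to 15817426) and given as CPM with exact Poisson intervals. Log2 ratios used 0.5 added UMIs, with exact conditional intervals. Genes with 100 or more UMIs over a pair of libraries were set against 2-fold. Shares were taken after thinning cells to 2000 UMIs, with exact Clopper-Pearson intervals, leaving 13691 cells. A count of 0 allows 3 counts. No model or p-value was used, since no group had replicates. The text names all members, the pathway genes past 2-fold between genotypes in naive or day 3 libraries, the 5 genes nearest in pattern and the 10 highest in 2-chain cells, beside pathway genes added after seeing values (H2-Oa, H2-Ob, Mif, Ctss). Some genes that this rule or the marker lists hold are not reported here. Members, lists and tests were chosen with earlier results of these data known. The scripts were tested on simulated data. Python 3.11.15, numpy 2.4.6, scipy 1.17.1 and pandas 2.3.3 were used.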

Additional observations from a re-analysis of the deposited data

Results flagged for a closer look

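For 3 members, control and A20 cKO libraries moved in opposite directions against their own naive library, with both intervals excluding 0. On day 2, Cd74 had a log2 ratio of −0.72 in control and 0.35 in A20 cKO. On day 3, H2-Ab1 was at −0.47 in control, a ratio across the split of libraries, and 0.41 in A20 cKO. H2-DMa was at 0.11 in control and −0.22 in A20 cKO on day 1, and at 0.34 and −0.40 on day 2. The Cd74 fall in control was smaller once 2-chain cells were removed: day 2 then stood at 56.6 CPM (53.0 to 60.4). Naive stood at 70.3 (57.8 to 84.5), while A20 cKO still rose, from 166 to 230.4 CPM. The control intervals overlapped, but overlap does not decide whether these levels differ, and the interval of their ratio is not given. The share of all tested genes that meet this rule is not given, and the intervals cover counting error only. With 1 library per group, these differences were not tested.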

How the results depend on the processing

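No paired analysis was possible because each group had 1 library. Adding 1 UMI in place of 0.5, stricter or no cell filters, scaling to the median gene and removal of shared barcodes kept the summed chain ratios within their intervals. The settings below did not. With the mean of cell CPM, A20 cKO day 2 against naive was at 0.27. Without cells holding 2 markers of another type, control day 3 against naive was at −0.80, A20 cKO day 3 against control day 3 at 0.19 and A20 cKO naive against control day 3 at −0.00446. Without the 1% of cells richest in class II UMIs, control day 1 and day 3 against naive were at −1.39 and −0.68, A20 cKO day 2 against naive at 0.25, A20 cKO day 3 against control day 3 at 0.60, and A20 cKO naive against control day 3 reversed from −0.38 to 0.12. Of 38 ratios of single members, 12 moved beyond their interval without this richest 1%, 6 without cells holding markers of another type and 2 each with the mean of cell CPM and the median gene, and 9 of 36 did without the 2-chain cells. No single member whose interval excluded 0 changed sign. In A20 cKO naive against control day 3, where their intervals included 0, H2-Aa turned from −0.54 to 0.45 without the richest 1% and 0.09 without cells holding markers of another type, and H2-Ab1 from −0.19 to 0.12 and 0.10, and to 0.27 without the 2-chain cells. H2-Ab1 in control day 2 against naive was also within 2-fold with stricter cell filters (−0.96) and relative to the median gene (−0.91). Why these values moved was not tested. Without thinning, shares of cells with a chain were 10.9%, 7.04%, 10.4% and 8.60% in control naive to day 3 and 8.73%, 8.47%, 12.7% and 14.0% in A20 cKO. Thinned to 1000 UMIs they were 4.75%, 1.90%, 2.76% and 2.74%, and 3.11%, 2.82%, 2.85% and 4.30%. These shares depend on depth by construction. With at least 20 UMIs in place of 100, 210 to 1351 genes per direction were past 2-fold, against 92 to 727, over 1.5 times as many in 17 of 18 counts. Depth left H2-Aa, H2-Eb1 and Ciita with too few UMIs for most ratios.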
